A study of Drosophila melanogaster with 18 samples.

Results

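Drosophila genes that are known only by a CG number, the systematic name a gene carries until a functional study names it, were followed where their transcripts fell as control animals formed puparia. Whole animals of the control strain w1118 and of the line hs-EcRi-11 (EcRi) were collected 4 hours before pupariation (-4 hours), at pupariation (0 hours) and 4 hours after it. Each strain and time had 3 arrays, with RNA of 10 pooled animals on each. EcRi animals carried a transgene under a heat-shock promoter, active in the whole body, whose double-stranded RNA targets the common region of the ecdysone receptor gene EcR. Their larvae received 1 hour at 37°C at 24 and again at 18 hours before pupariation. Whether controls were heated too was not stated, so the heat, the strain background and the loss of EcR cannot be told apart. Array values were put on a log2 scale after those below an intensity of 92 had been raised to that floor. A gene was a member when its control median at 0 hours lay at least 1 log2 unit below that at -4 hours, and 48 of the 4479 CG-numbered genes on the array met this limit.

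Puparium formation is set off by a pulse of the steroid 20-hydroxyecdysone, which acts through a nuclear receptor made of EcR and its partner ultraspiracle. At this stage the animal has left the food, the salivary glands have expelled their glue, and larval tissues such as the midgut and the salivary glands begin to be replaced. A transcript that is made mainly for larval life often declines at about this time, and many digestive enzymes of the larva are of this kind.

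The arrays showed one technical feature that touches the results. Array medians lay between 221.6 and 247.6. The nearest correlation with another array was 0.939 for control replicate 1 at -4 hours and 0.933 for EcRi replicate 1 at 0 hours. It was 0.974 to 0.995 for the other 16 of 18 arrays. Among those 16, the 3 EcRi arrays at 4 hours had 0.974, 0.976 and 0.974, and the rest had 0.992 to 0.995. The transcript targeted by the transgene gave no check of the labels. One EcR probe set read 447.7 to 547.4 in controls and 386.9 to 572.8 in the arrays labelled EcRi, and the other read 152.4 to 324.5 and 191.3 to 288.3.

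The control fall is the selection itself and was not tested. Across all probe sets, 0.874% met the same limit. On floored values the 48 falls ran from 2.00-fold to 8.90-fold. Above the floor on all 18 arrays were 37 members, against 67.7% of all probe sets. At 0 hours 3 members, CG9040, CG10051 and CG15721, were at the floor on all control arrays, against 18.6% of all probe sets. The falls of these 3 are lower bounds. On all 48 the 3 arrays at 0 hours lay below the 3 at -4 hours, which held for 15.2% of all probe sets. Just inside the limit were CG11961 at the limit itself (2.00-fold), CG3626 at -1.009 and CG13931 at -1.026, and just outside were CG11095 at -0.997, CG6839 at -0.957 and CG8087 at -0.956. The steepest fall on floored values was that of CG5084, from 1402, 2013 and 1962 at -4 hours to 236.1, 220.5 and 212.5 at 0 hours. The next were CG15225 at -2.68, CG17826 at -2.67, CG14300 at -2.54, CG9040 at -2.48 and CG15404 at -2.38 log2 units. The deposited values of CG9040 went from 170.9, 513.2 and 526.2 to 47.0, 48.6 and 47.5, so its place in this order depends on the floor.

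**Figure D1:**
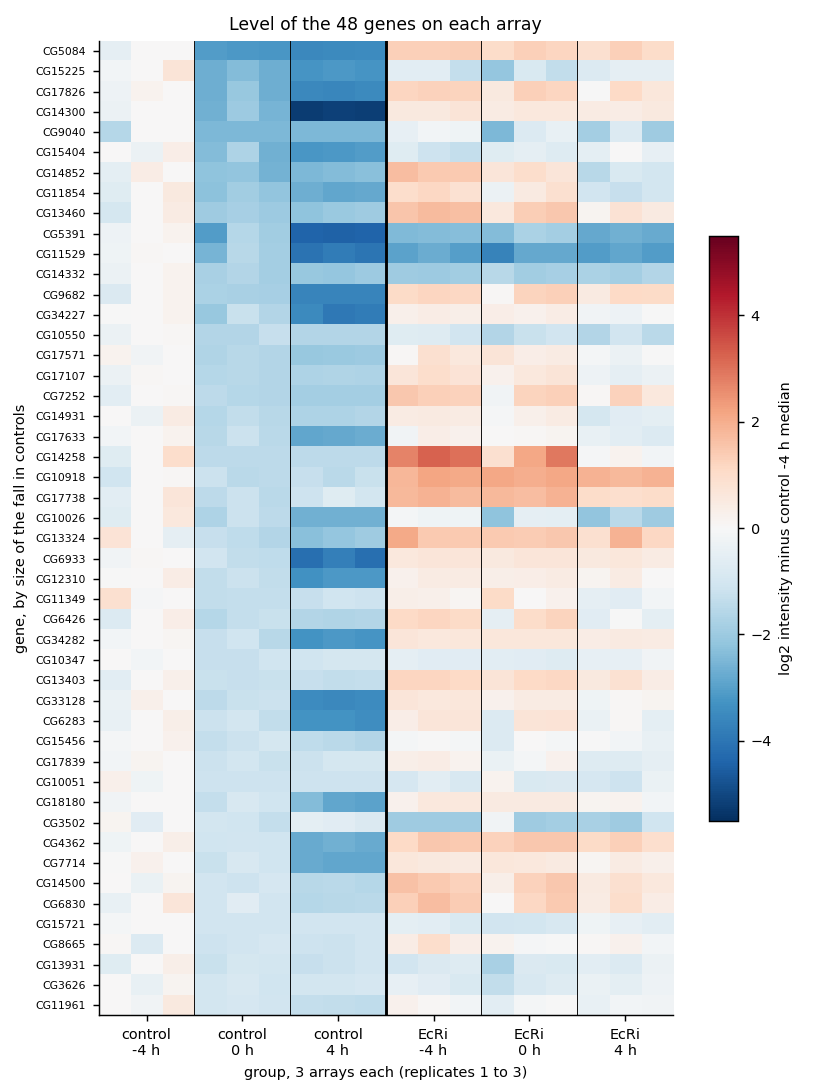
Log2 intensity of each of the 48 genes on the 18 arrays, relative to that gene's median in controls at -4 hours, with genes ordered by the size of the control fall and 3 arrays per group. The control blocks at 0 and 4 hours are blue for the genes as chosen. Of the 48 EcRi rows, 23 stay within 1.5-fold over the 3 times, against 88.5% of all probe sets.

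In EcRi animals the members changed little on the median over the same interval. Their arrays were not used to choose the members. None of the 48 genes was called lower or higher between -4 and 0 hours, where a call needs an adjusted p under 0.10 and a change of at least 1.5-fold, and the background was 0% of all probe sets. Before adjustment 10 members had a p under 0.05, 9 of them lower, against 3.23% and 2.16% of all probe sets. The median change was -0.22 log2 units, against 0.00 for all probe sets. It turned to 0.19 and 0.37 for the 95 and 86 genes that met the limit without control replicate 2 or 3 at -4 hours. In those choices the control median at -4 hours rests on replicate 1, whose nearest correlation was 0.939, and 1 other array. Without replicate 1 itself, 54 genes met the limit and their median change was -0.25. Estimates ranged from -1.02 for CG14258 to 0.61 for CG3502, and 37 of 48 lay below 0, against 47.2% of all probe sets. The estimate of 1 member, CG14258, was at or below -1, against 0.0931%. A 2-fold fall lay outside the 95% interval for 36 members, whose intervals were wholly above -1, as they were for 88.4% of all probe sets. The remaining 12 intervals reached a 2-fold fall. Among them, those of CG14852 (-1.16 to -0.34), CG11854 (-1.21 to -0.04) and CG14258 (-1.97 to -0.06) lay wholly below 0, without adjustment for the number of genes. For the others of the 12 these arrays could not tell a missing fall from a fall of that size.

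CG5084 read 4865, 4849 and 5084 in EcRi animals at -4 hours, 3928, 4847 and 4490 at 0 hours, and 3625, 4875 and 3903 at 4 hours. The EcRi arrays at 0 hours all lay below those at -4 hours, the closest pair being 4847 and 4849, those at 4 hours overlapped both, and all 9 were above every control array. Its EcRi change from -4 to 0 hours was -0.16 ± 0.11 log2 units (SE, n = 3 per group; 95% interval -0.41 to 0.09).

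CG14300 was flatter still, at 5900, 5902 and 6599, then 5557, 6128 and 6049, then 5591, 5437 and 5864 over the 3 EcRi times. In controls it went from 3268, 4069 and 4046 through 647.5, 1022 and 694.6 to 107.2, 113.9 and 111.0, close to the floor. The EcRi change into pupariation was -0.05 ± 0.06.

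Among members whose EcRi mean at -4 hours was at least 4 times the floor, the smallest EcRi changes into pupariation belonged to CG12310 at 0.01 ± 0.11, CG17571 at -0.01 ± 0.19, CG34282 at -0.01 ± 0.03 and CG6933 at -0.01 ± 0.10. CG34282 held 8465, 8020 and 8253 at -4 hours and 8134, 8238 and 8171 at 0 hours, while its control arrays went from 4815, 5310 and 5678 to 2181, 2491 and 1864. All 9 EcRi arrays of CG34282 exceeded all 9 of its control arrays.

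The small shift to lower levels in EcRi animals leaned on 1 array. The mean log2 level of the 48 genes was 10.01 on EcRi replicate 1 at 0 hours, the array with the lowest nearest correlation, and 10.39 and 10.46 on its replicates. Without it the median change was -0.05, 33 estimates lay below 0, none was at or below -1, and 4 had an unadjusted p under 0.05. The lowest estimates were then CG14852 at -0.70 ± 0.21 and CG8665 at -0.60 ± 0.18, the latter a formyltetrahydrofolate dehydrogenase of folate metabolism. CG14258, which had the lowest estimate over all arrays, moved from -1.02 ± 0.42 to -0.47 ± 0.23. Its EcRi arrays at 0 hours read 460.8, 1102 and 1857, after 1636, 2359 and 2021 at -4 hours. The rise of CG3502 also sat on that array, with 312.0 against 87.2 and 96.6 on the others.

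**Figure D2:**
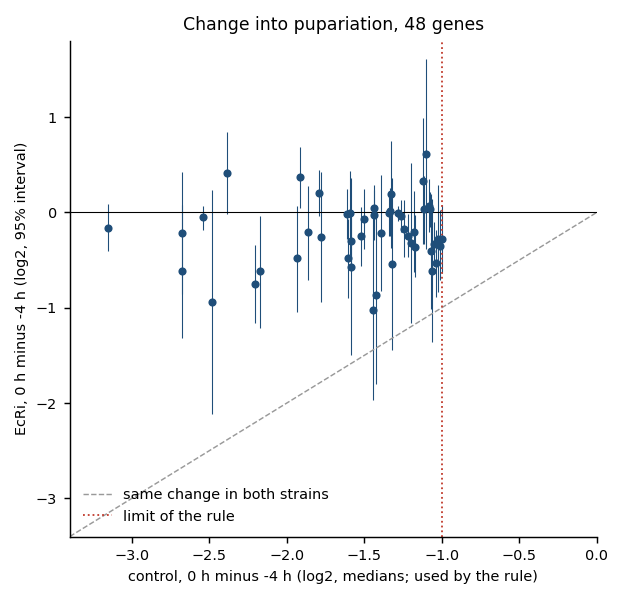
Change from -4 to 0 hours of the 48 genes on a log2 scale, with controls on the x axis (the values that chose the genes, all at or below -1) and EcRi on the y axis with 95% intervals. The points lie around a median of -0.22 on the y axis and above the dashed line of equal change.

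Between 0 and 4 hours part of the group fell in EcRi animals. Of the 48 genes, 8 were called lower, against 0.451% of all probe sets, and 0 were called higher, against 0.387%. The median change was -0.30, against 0.00 for all probe sets, and ran from -1.97 to 0.86. CG14852 went from 2033, 2525 and 2021 to 436.9, 720.4 and 639.0, a fall of 3.72-fold (-1.90 ± 0.18, adjusted p = 0.0034), and its EcRi arrays at the 2 times were well apart. CG14258 went from the values given above to 241.7, 285.0 and 228.8 (-1.97 ± 0.42, adjusted p = 0.088). CG11854 went from 1114, 1927 and 2575 to 673.5, 579.1 and 683.6 (-1.46 ± 0.26, adjusted p = 0.045). CG14258 and CG11854 both belong to the family of haemolymph juvenile hormone binding proteins, secreted carriers of small lipids.

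The other called falls were smaller. CG14931 changed by -0.91 ± 0.14, CG17107 by -0.86 ± 0.12, CG17738 by -0.82 ± 0.11, CG5391 by -0.74 ± 0.14 and CG17633, a metallocarboxypeptidase, by -0.66 ± 0.14. CG15721 gave 0.58 ± 0.10 with an adjusted p of 0.040, just short of the 1.5-fold limit. None of the 8 calls held under every setting tried, and 0 were left in a fit to the compared arrays alone, whereas 15 were made without EcRi replicate 1 at 0 hours. In 23 of 48 members the EcRi means of all 3 times stayed within 1.5-fold of each other, against 88.5% of all probe sets.

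**Figure D3:**
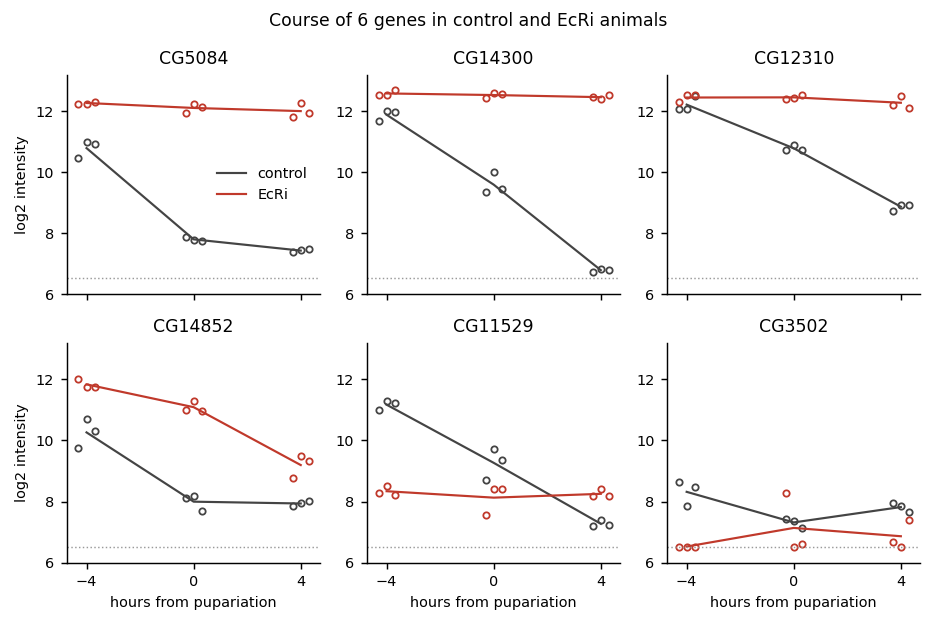
Log2 intensity of 6 genes against hours from pupariation in controls (grey) and EcRi animals (red), with a point for each array, lines through the means of 3 arrays and a dotted line at the floor. CG5084, CG14300 and CG12310 stay high in EcRi, CG14852 falls after 0 hours, CG11529 starts low in EcRi, and CG3502 lies near the floor on most EcRi arrays.

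At 4 hours, a time whose control arrays took no part in the selection, 40 of the 48 genes were higher in EcRi animals than in controls, against 3.93% of all probe sets. None was called lower, against 6.68%. The median difference was 1.90 log2 units, with quartiles of 0.96 and 3.13, while the median of all probe sets was 0.00. For the 95 and 86 genes that met the limit without control replicate 2 or 3 at -4 hours it was 0.80 and 0.75, with 46 and 36 genes called higher. For the 54 genes chosen without replicate 1 it was 1.90, with 44 called higher. The 3 EcRi arrays lay above the 3 control arrays for 45 members, against 19.7% of all probe sets. Of the 40 calls, 32 held under every setting tried.

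CG14300 had the largest difference, 50.8-fold (5.67 ± 0.06, adjusted p = 7.5e-11), followed by CG5084 at 23.8-fold (4.57 ± 0.11, adjusted p = 1.7e-08). CG6933, which has chitin-binding domains of the peritrophin kind, was 23.4-fold higher (4.55 ± 0.10, adjusted p = 1.2e-08). Its 3 control arrays read 106.5, 138.4 and 106.7 and its EcRi arrays 2707, 2939 and 2536. CG9682 read 42.8, 33.8 and 47.7 in controls, all below the floor, and 1612, 2394 and 2324 in EcRi animals, which is at least 22.6-fold higher (adjusted p = 2.6e-05). CG17826, another peritrophin-like gene, was 17.4-fold higher (4.12 ± 0.28, adjusted p = 3.2e-05), and CG4362 was 14.2-fold higher (3.83 ± 0.12, adjusted p = 1.3e-07). Differences of at least 8-fold were reached by 14 called members.

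The 8 genes not called at 4 hours were CG9040, CG10026, CG13931, CG17839, CG14332, CG10051, CG10550 and CG3502. CG9040 fell below the floor on all control arrays at 0 and 4 hours, and in EcRi animals it read 140.4, 303.0 and 131.4 at 4 hours, so its difference of 0.95 ± 0.51 is a lower bound (adjusted p = 0.27). CG3502, a membrane aminopeptidase of the alanyl family, was the one member with a lower EcRi estimate (-0.96 ± 0.44, adjusted p = 0.19). Its EcRi arrays read 102.4, 65.7 and 167.0 and its controls 246.4, 230.5 and 202.4, with no overlap. The controls of 8 members were at the floor on all 3 arrays at 4 hours, as were those of 18.5% of all probe sets, and their differences are lower bounds; 4 of them were called.

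**Figure D4:**
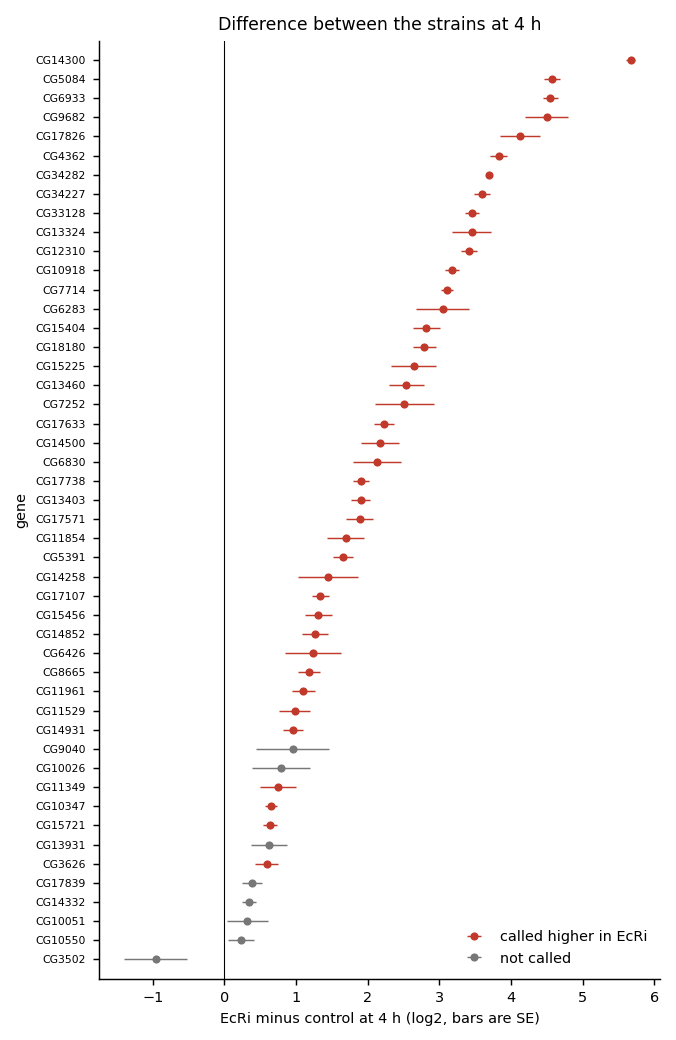
EcRi minus control at 4 hours on a log2 scale for the 48 genes, with the SE of the fit as bars, red for the 40 genes called higher and grey for the 8 not called. The differences run from -0.96 for CG3502 to 5.67 for CG14300.

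Families were given to 19 members from general knowledge and RefSeq synonyms, with no search for protein domains. The grouping was made after the values had been seen. The counts of each family stand beside 40 of all 48 members and 3.93% of all probe sets called higher at 4 hours. No family was tested against the other members. The peptidases were CG11529, CG17571 and CG18180, which are trypsin-like serine proteases, CG33128, a pepsin-like aspartic protease, CG17633, the exopeptidases CG11961 and CG10051, and CG3502. Of these 8, 6 were higher at 4 hours, with a median difference of 1.5, from 3.46 ± 0.10 for CG33128 down to CG3502. None of the 8 was called between -4 and 0 hours in EcRi animals, as held for all probe sets (0% called). Their median change was -0.04, against 0.00 for all probe sets. The 3 genes listed as having peritrophin-type domains were CG17826, CG7252 and CG6933. Such domains are found in proteins of the chitin-lined membrane around the gut contents. All 3 genes were higher at 4 hours, with a median difference of 4.12. CG7252 was the lowest of them at 2.51 ± 0.41, a lower bound, since its controls were below the floor at 62.4, 73.5 and 73.7.

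Of the other enzymes, the lipase family member CG6283 was 3.05 ± 0.37 higher at 4 hours, the lysozyme family member CG6426 was 1.24 ± 0.39 higher and CG8665 was 1.18 ± 0.15 higher, so all 3 were called. The carriers and kinases comprised CG11854 and CG14258, the lipid-binding CRAL-TRIO protein CG10026, and CG6830 and CG10550 of the ecdysteroid kinase-like family, whose founding member in silkworm adds a phosphate to ecdysteroids. Among these 5, 3 were higher at 4 hours. CG6830 differed by 2.13 ± 0.33, whereas CG10550 differed by 0.23 ± 0.18 and was not called. The median EcRi change of these 5 genes into pupariation was -0.62, against 0.00 for all probe sets. None was called, as held for all probe sets (0% called). Without EcRi replicate 1 at 0 hours the estimates of these 5 genes ran from -0.47 to -0.18, with the middle one at -0.30 for CG10026. Of the 29 members with no family given, 25 were higher at 4 hours, with a median of 1.91.

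Members differed in where EcRi animals stood before pupariation. These values share control arrays with the selection and are descriptions only. At -4 hours the EcRi mean was at least 1.5-fold above controls for 23 members, against 3.87% of all probe sets, at least 1.5-fold below for 10, against 3.49%, and in between for 15. All 23 genes of the first kind were called higher at 4 hours, as were 12 of the 15 in between and 5 of the 10 that started below controls. These counts stand beside 40 of all 48 members and 3.93% of all probe sets. The same split of all probe sets is not given here. CG14258 stood furthest above controls at -4 hours, by 2.88 log2 units, and CG10918 was 2.37 above. CG10918 read 4836, 6182 and 5909 at -4 hours and 5159, 4711 and 5138 at 4 hours in EcRi animals, which was 3.18 ± 0.10 above controls at 4 hours.

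The lowest starts in EcRi animals were those of the protease CG11529, 2.83 log2 units below controls at -4 hours, and CG5391, 2.36 below. CG11529 read 314.0, 365.7 and 294.6 at -4 hours and 289.8, 336.3 and 290.3 at 4 hours in EcRi animals, while its controls fell from 2029, 2507 and 2415 to 145.4, 168.1 and 150.6. The order of the strains thus turned, and at 4 hours EcRi was 0.98 ± 0.22 higher (adjusted p = 0.022). CG5391 turned in the same way, from 1383, 1418 and 1457 in EcRi against 6182, 7399 and 8451 in controls at -4 hours to 1038, 1177 and 1079 against 351.3, 341.9 and 353.2 at 4 hours. Its difference at 4 hours was 1.65 ± 0.14 (adjusted p = 1.3e-04). CG14332 also started low in EcRi, at 730.1, 712.9 and 748.9 against 2267, 2817 and 3267 in controls, and at 4 hours it was 0.34 ± 0.10 above controls and not called.

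At 0 hours the EcRi mean was at least 1.5-fold above controls for 38 members, against 6% of all probe sets, and below for 1, CG11529, against 9.66%. The selection took genes with low control values at 0 hours, so part of this excess is built in and counts against those arrays are descriptions only. In controls 21 members were at least 1.5-fold lower again at 4 than at 0 hours, against 3.66% of all probe sets, and 0 were that much higher, against 3%. Of those 21, 20 were called higher in EcRi at 4 hours, beside 40 of all 48 members. Both counts use the control arrays at 4 hours, so a low control value there raises both and the overlap is a description only. CG14300 and CG6933 had the deepest further control changes, at -2.8 and -2.75 log2 units. CG5084 changed less over that interval in controls, to 166.3, 174.4 and 177.2 at 4 hours. These counts are of floored values, and for members below the floor at 4 hours the control fall is only bounded.

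Most midgut markers and all salivary gland glue genes moved with the members, whereas markers of the other tissues did so in part or not at all. The summed intensity of 7 measured midgut markers of 8 listed, such as the Jonah proteases and trypsins, was 43136 to 51004 in controls at -4 hours, 27104 to 31592 at 0 hours and 7451 to 9231 at 4 hours. In EcRi animals it was 48286 to 60700, 51736 to 57338 and 41233 to 43908, and 6 of the 7 were called higher at 4 hours. Jon65Ai was not, with a mean of 3108 in EcRi animals against 3925 in controls. All 6 salivary gland glue genes were measured, and their sum went from 60681 to 64010 down to 2787 to 3630 in controls while staying at 53922 to 59929 in EcRi animals. All 6 were called higher at 4 hours. The 4 haemocyte markers summed to 1158 to 1773 in controls and 3143 to 6538 in EcRi animals over the 3 times, and 2 were called higher. PPO2 already averaged 3334 in EcRi animals against 548.5 in controls at -4 hours. At 4 hours Hml averaged 682.4 against 503.8, and NimC1 165.9 against 148.3. The 3 measured fat body markers of 5 listed rose in controls, from a sum of 40306 to 42078 at -4 hours to 44012 to 45733 at 4 hours. In EcRi animals they summed to 35342 to 42059 over the 3 times, and 1 was called lower at 4 hours. Every measured marker of these 4 tissues was above the floor on all arrays. Of the other listed markers, 2 of 4 muscle genes, 3 of 4 neuronal genes and 1 of 5 cuticle genes, Lcp9, were found by name. Of the 2 muscle genes 1 was called higher, as was Lcp9, and none of the 3 neuronal genes was called. The part of any tissue in the members' result was not tested, and in whole animals fewer cells of a type and less RNA per cell cannot be told apart.

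The pattern was set beside other genes chosen on the same arrays. Of 61 genes with other symbols that met the same limit, 52 were called higher in EcRi at 4 hours, with a median of 1.58. This was 85.2% of them, against 83.3% of the CG-numbered members and 3.93% of all probe sets. The median EcRi change of the 61 genes into pupariation was -0.05. From 0 to 4 hours 11 of them were called lower, against 0.451% of all probe sets. The difference between the 2 sets was not tested. Of 41 CG-numbered genes that rose at least 2-fold in controls, 24 were called lower in EcRi at 4 hours, against 6.68% of all probe sets. Only 1 was called higher, against 3.93%, and the median of the 41 genes was -1.0.

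Among the other members the course of CG5084 over the 18 arrays was most like that of CG17826 (Pearson's r = 0.984), CG13403 (0.974) and CG13324 (0.965). The arrays share strain and time, so these values are descriptions. In the RefSeq annotation of the fly, 3 pairs of members lie side by side with no gene between them. In the pair CG14300 and CG34282 both genes were bright and flat in EcRi, with differences at 4 hours of 5.67 and 3.69 ± 0.03. The pair CG7252 and CG17826 holds a peritrophin-like gene on each side. The pair CG11961 and CG10051 holds an exopeptidase on each side, of which CG11961 was 1.10 ± 0.16 higher at 4 hours and CG10051 differed by 0.32 ± 0.29, with no call.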

How the data were processed

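RNA of 10 pooled whole animals was hybridised to each of 18 Affymetrix Drosophila Genome Arrays. The authors normalized the arrays and summarised probe sets with dChip, and deposited intensity values on a linear scale. Which probe-level model was used was not stated. The platform annotation gave 12442 of 13966 probe sets 1 symbol, 327 several and 1197 none, and updating through RefSeq (12393 matched) changed none. Each member had 1 probe set. The linear model of limma 3.58.1 in R 4.3.3 was fitted to the 12 arrays that the selection had not used, with 1 mean per group and 8 residual degrees of freedom. P-values are two-sided and Benjamini-Hochberg adjusted over all probe sets. The replicates were independent collections per the methods, and the number of arrays limits the precision. The script was tested on simulated data. Members, marker lists and tests were chosen with earlier results of these data known. Named genes were the 6 largest control falls, up to 6 largest non-overlapping calls per test and direction, the 4 smallest EcRi changes, 3 genes on either side of the limit, and adjacent members. Genes named by family, as not called, as completing a count or for their level at -4 hours were chosen after their values were seen. The study's SAM test, whose null re-splits the samples, was not run. Other settings were floor, pseudocount, normalization, filter, limits, variance model, arrays fitted, replicate block and leaving out arrays.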

Additional observations from a re-analysis of the deposited data

How the results depend on the processing

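No member was called for the EcRi change from -4 to 0 hours under any setting tried, but over all 13966 probe sets no setting called more than 2 lower or 14 higher, so this count says little about stability. The count of members called higher at 4 hours ranged from 35 to 43 with single arrays left out, and under other settings stayed within 1.5 times of 40. The 8 calls lost in some setting were CG11349, CG14258, CG14931, CG15721, CG3626, CG10347, CG6426 and CG11529. A call of 1 lower member (against 0) came with the compared arrays only, without 3 EcRi arrays that stood apart (replicate 1 at 0 hours and replicates 1 and 3 at 4 hours, which leaves 1 EcRi array at 4 hours, assumed to vary like the other groups), and, in a range of 0 to 1 with single arrays left out, without EcRi replicate 1 at 0 hours. The 8 falls from 0 to 4 hours were the least stable. They numbered 5 under quantile normalization, 5 with a replicate block, 5 at an adjusted p under 0.05, 3 at a 2-fold limit and 0 with the compared arrays only, and 4 to 15 with single arrays left out. Rises over that interval numbered 1 with no fold limit and 0 to 1 with single arrays left out. The cause was not tested.

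The members themselves depended on the control arrays. Leaving out 1 control array gave 43 to 95 members, with 95 (46 shared with the 48) without replicate 2 at -4 hours and 86 (36 shared) without replicate 3. Choosing members this way was added after the data were examined. Without replicate 2 or 3 at -4 hours the median EcRi change into pupariation turned to 0.19 and 0.37. The median difference at 4 hours was then 0.80 and 0.75. Without replicate 1 at -4 hours (54 members, 44 shared) these medians were -0.25 and 1.90. At 4 hours 46 of those 95 and 36 of those 86 were called higher, a lower share than 40 of 48. Over all 6 such choices 36 to 46 members were called higher at 4 hours, 8 to 10 lower and 0 to 1 higher from 0 to 4 hours, and 0 from -4 to 0 hours. Replicate numbers were not taken as pairs, because the methods give independent collections. Of 18 correlations between same-numbered arrays, with group means removed, 5 were over 0.1, and all ran from -0.57 to 0.63. With 3 arrays per group these correlations cannot decide whether the numbers pair the samples. The block changed no other count by over 1.5 times. Intensities near the floor limit the fold of dim genes. Comparisons of protein and promoter sequence were not run.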

Other observations

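The limit that chose the members was also met by 10 probe sets with no symbol in the annotation and by 3 with several symbols, which were left out because no single gene can be named for them.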
